A study of Mus musculus with 6 samples.

Results

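Pyruvate dehydrogenase, the mitochondrial complex that turns pyruvate into acetyl-CoA, was followed here at the level of its messenger RNAs, together with the kinases and phosphatases that switch it and the carrier that brings pyruvate to it. The set comprised 10 genes of 55471 in the deposited tables, taken by symbol: the kinases Pdk1, Pdk2, Pdk3 and Pdk4, the phosphatases Pdp1 and Pdp2, the decarboxylase subunits Pdha1 and Pdhb, and the carrier subunits Mpc1 and Mpc2. RNA sequencing covered liver from male wild-type C57BL/6J mice, an inbred laboratory strain, with 3 animals fasted for 4 h and 3 fasted for 16 h. Ages and clock times of sampling were not in the labels. No liver here came from fed animals, so every change below is that of the longer fast relative to the shorter. Values are counts per 1000000 counts (CPM) on scaled library sizes, and groups are given as mean ± SD (n = 3).

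The complex decarboxylates pyruvate, passes the acetyl group to a lipoyl arm and releases acetyl-CoA, a step that mammals cannot reverse. Pyruvate dehydrogenase kinases phosphorylate the alpha subunit of the decarboxylase and switch the complex off, and the phosphatases remove the phosphate and switch it on. In fasted liver, pyruvate is spared for glucose synthesis through pyruvate carboxylase. Pdk4 is the kinase best known for induction in fasting, a response ascribed to PPARα, FOXO and glucocorticoid signalling. Messenger RNA levels say nothing of the phosphorylation state of the complex.

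Of the 9 members with enough counts to test, 1 rose, 1 fell and 7 did not pass the edgeR quasi-likelihood test with Benjamini-Hochberg adjustment at 0.05. Across all 13812 genes tested, 18.7% were called, 9.18% as higher and 9.51% as lower, so the members' share was close to the background. Pdk4 was the gene that rose and Pdhb the gene that fell. The 3 values of one group lay wholly above those of the other for these same 2 members, against 39.4% of all tested genes. The median log2 change of the 9 members was 0.13, and that of all tested genes was -0.028. In bulk liver, fewer cells of a type and less RNA per cell cannot be told apart.

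The libraries held 15173653 to 26572532 counts assigned to genes. All 6 listed hepatocyte markers, among them Alb and Ttr, were detected in each library, with a summed level of 89224 to 96318 CPM after 4 h and 86108 to 96770 CPM after 16 h, and 3 of the 6 were called as higher and 1 as lower. Replicate 3 of the 4 h fast stood apart: its 5 lung epithelium markers summed to 176 CPM against 4.51 to 7.65 CPM in the other libraries, and its 5 neutrophil markers to 15.1 CPM against 1.73 to 3.13 CPM. The sums of 4 marker lists did not overlap between the fasts and were lower after 16 h, each with 1 gene called as lower: muscle, given beside Pdk4, erythroid, exocrine pancreas and adipocyte. The 4 erythroid markers summed to 145 to 171 CPM after 4 h and 52.3 to 97.0 CPM after 16 h. The 4 exocrine pancreas markers, of which Prss2 and Pnlip had no counts, summed to 17.3 to 28.4 CPM and 5.27 to 8.01 CPM in the same order, and the 4 adipocyte markers, of which Lep had no counts, to 1.03 to 5.48 CPM and 0.301 to 0.667 CPM. The 5 Kupffer cell markers overlapped, at 78.6 to 138 CPM and 72.8 to 86.1 CPM, with 1 of 5 called as lower. Their part in the results was not tested.

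**Figure D1:**
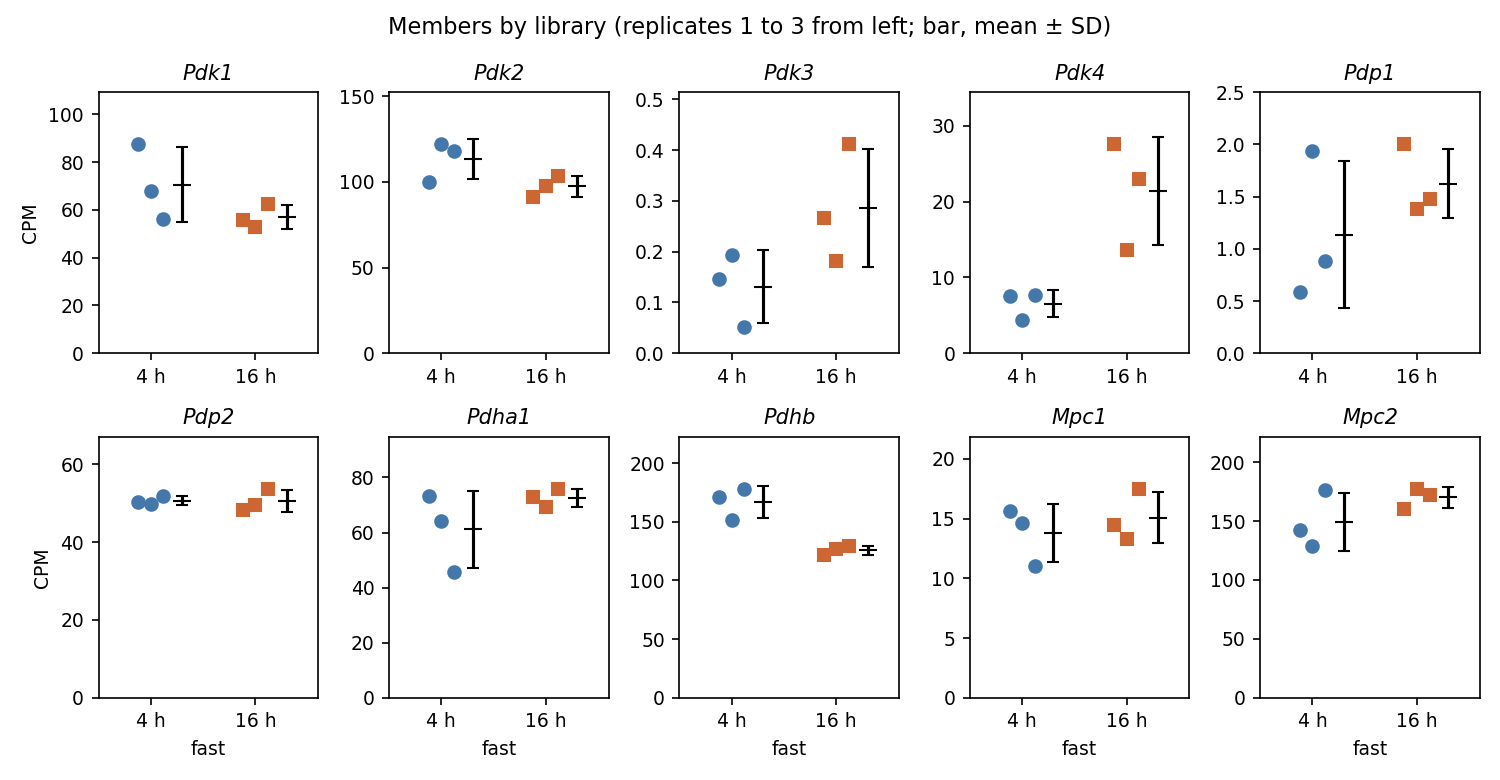
Level of each of the 10 members in CPM (vertical axes, from 0, each panel with its own scale) in the livers fasted for 4 h (circles, 3 livers) and 16 h (squares, 3 livers), with mean ± SD beside the points. The groups separate for Pdk4, at 4.45 to 7.62 against 13.7 to 27.6 CPM, and for Pdhb, at 151 to 178 against 121 to 129 CPM, and overlap for the other 8.

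The 4 kinases share a fold and a substrate but differ in regulation. Pdk4 lies on chromosome 6 at 5483351 to 5496309 of GRCm38, on the minus strand. Its level was 7.58, 4.45 and 7.62 CPM in replicates 1, 2 and 3 of the 4 h fast, and 27.6, 13.7 and 23.0 CPM in those of the 16 h fast. All 16 h livers were above all 4 h livers, and replicate 2 was the lowest in each group. The mean went from 6.55 ± 1.82 to 21.4 ± 7.1 CPM, 3.27-fold. The log2 change was 1.70 ± 0.28 (SE), with a 95% interval of 1.08 to 2.32 (edgeR adjusted p = 0.00323). Without replicate 3 of the 4 h fast, the library with lung transcripts, the change was 1.81 and the call was lost (edgeR adjusted p = 0.0532). Over all 12 alternatives the change lay between 1.49 and 1.94 and the adjusted p between 5.18e-23 and 0.0532. Pdk4 is abundant in heart and skeletal muscle, so the muscle list was set beside it: its 6 markers, none at 0 over all libraries, summed to 7.39, 6.19 and 9.35 CPM in the 4 h livers and 5.56, 5.66 and 4.49 CPM in the 16 h livers. Of the 3 muscle markers tested, 1 was called as lower and none as higher. The muscle sum was lower in each 16 h liver than in each 4 h liver. Within the 4 h fast it was lowest in replicate 2 and highest in replicate 3. Pdk4 was also lowest there in replicate 2, with replicates 1 and 3 nearly level at 7.58 and 7.62 CPM. Within the 16 h fast the muscle sum was highest in replicate 2, where Pdk4 was lowest. The part of muscle transcripts in the Pdk4 values was not tested.

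Promoter sequence was looked up for the kinase that rose, for the kinase with the highest level and for the subunit that fell. RefSeq (GRCm38.p6) gave start sites for 9 of the 10 members, in 12 windows. Shown are the 250 bases before the start, read 5′ to 3′ on the gene's own strand. They lie at chr6:5496279-5496528 for Pdk4, chr11:95041372-95041621 for Pdk2 and chr14:8172993-8173242 for Pdhb, all on the minus strand. Capitals mark matches to the 10 motifs searched.
Pdk4: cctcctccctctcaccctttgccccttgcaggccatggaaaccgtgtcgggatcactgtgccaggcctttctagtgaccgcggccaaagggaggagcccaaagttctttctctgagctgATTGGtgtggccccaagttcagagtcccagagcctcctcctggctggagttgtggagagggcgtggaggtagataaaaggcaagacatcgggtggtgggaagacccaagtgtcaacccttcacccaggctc
Pdk2: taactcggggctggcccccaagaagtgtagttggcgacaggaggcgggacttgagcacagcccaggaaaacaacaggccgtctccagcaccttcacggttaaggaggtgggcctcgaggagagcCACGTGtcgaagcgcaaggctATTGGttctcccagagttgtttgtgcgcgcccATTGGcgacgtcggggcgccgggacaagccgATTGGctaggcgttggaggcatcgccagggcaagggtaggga
Pdhb: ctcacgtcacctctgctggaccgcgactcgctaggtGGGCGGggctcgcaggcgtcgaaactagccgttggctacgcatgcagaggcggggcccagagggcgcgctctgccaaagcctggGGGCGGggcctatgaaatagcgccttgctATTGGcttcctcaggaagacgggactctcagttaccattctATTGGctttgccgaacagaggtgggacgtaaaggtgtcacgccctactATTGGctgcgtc
The motifs, on both strands, were the TATA box TATAAA, the CCAAT box, the SP1 element GGGCGG, the E-box CACGTG, the FOXO element GTAAACA, the nuclear receptor hexamer AGGTCA and its direct repeat with 1 base between the copies, which contains it, the cAMP response element TGACGTCA, the glucocorticoid element, AGAACA and TGTTCT with 3 bases between them, and the ERR element TCAAGGTCA, which also contains the hexamer. In Pdk4 the only match was a CCAAT box on the opposite strand, 131 to 127 bases before the start. Pdk2 had 3 CCAAT boxes and an E-box in the window shown, and Pdhb 3 CCAAT boxes and 2 GGGCGG boxes. The other RefSeq window of Pdk2, at chr11:95040876-95041125 and not shown, held no match to any of the motifs. Of 32851 RefSeq windows of the same length, 33.8% held CCAAT, 32.7% GGGCGG, 6.02% CACGTG, 3.17% GTAAACA and 14.0% AGGTCA. The TATA box was in 12.4% of them, TGACGTCA in 1.55%, TCAAGGTCA in 0.387%, the direct repeat in 0.0335% and the glucocorticoid element in 0.00913%. A match here is a description of these letters only.

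Pdk2, a kinase of broad tissue distribution on chromosome 11 at 95026258 to 95041354, had the highest kinase level. Its 4 h livers were at 99.9, 122 and 118 CPM and its 16 h livers at 91.1, 97.5 and 103 CPM. The ranges met only through replicate 1 of the 4 h fast and replicate 3 of the 16 h fast. The change was -0.22 ± 0.11 (95% interval -0.47 to 0.03) and did not pass (edgeR adjusted p = 0.201), and a doubling or halving lies outside that interval.

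Pdk1, known as a target of the hypoxia factor HIF, lies on chromosome 2 at 71873224 to 71903858. It was at 87.4, 67.9 and 56.2 CPM after 4 h and at 55.8, 52.9 and 62.5 CPM after 16 h. The 4 h livers were spread more widely than the 16 h livers and overlapped them through replicate 3. The change of -0.31 ± 0.15 did not pass (edgeR adjusted p = 0.179). Without that replicate it was -0.43 and passed (edgeR adjusted p = 0.0204), while the adjusted p over all 12 alternatives ran from 0.0204 to 0.65.

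Pdk3, best known from testis, lies on chromosome X at 93764607 to 93832201 and had very few reads. It had 4, 3 and 1 counts in the 4 h libraries and 6, 3 and 10 counts in the 16 h libraries, at most 0.412 CPM, and did not pass the filter on low counts. Summed over livers, 8 against 19 counts gave a ratio of 2.32 with an exact 95% interval of 0.969 to 6.12 for counting error only. A fit with no filter gave a log2 change of 1.16 (edgeR adjusted p = 0.468). A change of Pdk3 was not detectable at this depth.

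Since counts grow with transcript length, kinases were compared with each other per kb of exon. On that scale Pdk4 supplied 4.79%, 2.61% and 4.64% of the kinase sum in the 4 h livers, and 17.9%, 9.37% and 13.8% in the 16 h livers. Its mean share went from 4.01 ± 1.22% to 13.7 ± 4.3%, and the groups did not overlap. Pdk2 stayed the largest component in each liver, at 76.4 ± 5.5% and 69.5 ± 4.3%, and Pdk1 supplied 19.5 ± 4.9% and 16.5 ± 0.3%. The kinase sum was 46.8 ± 1.8 CPM per kb after 4 h and 44.3 ± 2.9 CPM per kb after 16 h, with overlapping groups. The composition of the kinase RNA thus differed between the fasts where its summed level overlapped. These shares are descriptions and were given no test.

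**Figure D2:**
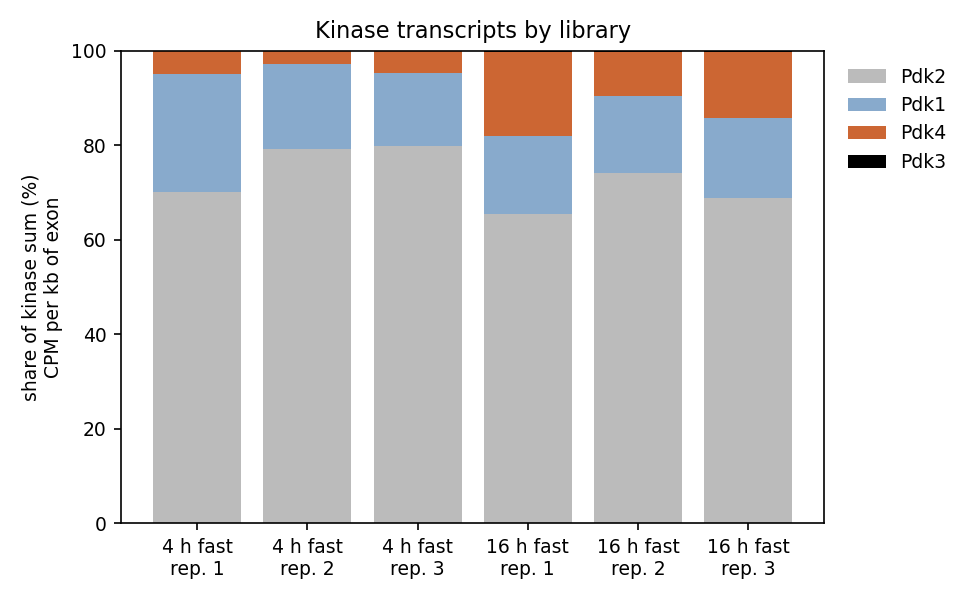
Share of each kinase in the summed kinase level (vertical axis, %, from CPM per kb of exon) in the 6 livers, 1 bar per library. Pdk4 takes 2.61% to 4.79% of each 4 h bar and 9.37% to 17.9% of each 16 h bar, Pdk2 is the largest part of all bars, and Pdk3 is too small to see.

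The phosphatases oppose the kinases. Pdp2, the isoform known from liver and fat, on chromosome 8 at 104591451 to 104599026, was the most even member. It was at 50.2, 49.7 and 51.9 CPM after 4 h and at 48.4, 49.7 and 53.7 CPM after 16 h. The groups lay on top of each other, with a change of -0.0013 ± 0.098 and a 95% interval of -0.22 to 0.21 (edgeR adjusted p = 0.995). Pdp1, the calcium-sensitive isoform known from muscle, on chromosome 4 at 11958184 to 11966452, was low. It had 16, 30 and 17 counts after 4 h and 45, 23 and 36 counts after 16 h, or 0.589, 1.93 and 0.888 against 2.0, 1.39 and 1.48 CPM. Its change of 0.59 ± 0.41 did not pass (edgeR adjusted p = 0.337), and the interval of -0.30 to 1.48 leaves room for a doubling. Without replicate 2 of the 4 h fast, its highest 4 h liver, the change was 1.18 and still did not pass (edgeR adjusted p = 0.0538, within 0.0538 to 0.718 over all 12 alternatives).

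The phosphatase list also held Pdpr, the regulatory subunit that lowers the activity of the phosphatase. Pdpr is no member of the set of 10. It was at 8.20, 8.63 and 4.96 CPM after 4 h and at 18.1, 18.7 and 13.2 CPM after 16 h, without overlap. It rose 2.29-fold (1.19 ± 0.21, edgeR adjusted p = 0.00307), and the call held without any one library (edgeR adjusted p up to 0.0177). The ratio of kinase sum to phosphatase sum, Pdp1 and Pdp2 per kb of exon, was 5.03, 5.30 and 5.02 after 4 h and 4.91, 4.61 and 4.86 after 16 h. These ranges were narrow and did not overlap, and the ratio was given no test.

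**Figure D3:**
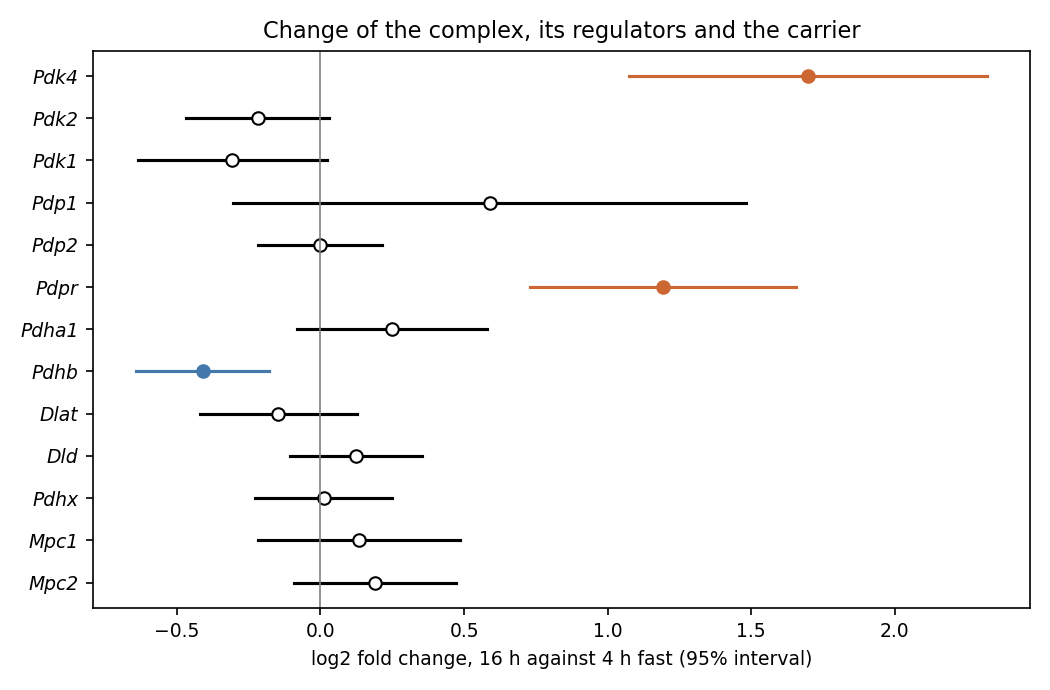
Log2 fold change of the 16 h fast against the 4 h fast (horizontal axis) with its 95% interval for the 9 tested members and for Pdpr, Dlat, Dld and Pdhx; filled points passed the edgeR test. Pdk4 at 1.70 and Pdpr at 1.19 lie above 0, Pdhb at -0.41 lies below it, and the intervals of the rest include 0.

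The decarboxylase is built of alpha and beta subunits in equal number. Pdhb, which encodes the beta subunit, lies on chromosome 14 at 8165996 to 8173025. It was at 171, 151 and 178 CPM after 4 h and at 121, 126 and 129 CPM after 16 h. All 16 h livers were below all 4 h livers and lay close together. The mean fell from 167 ± 13.9 to 126 ± 3.8 CPM, to 75.3% of the 4 h level (-0.41 ± 0.11, 95% interval -0.64 to -0.18, edgeR adjusted p = 0.0209). The call was lost without replicate 1 of the 4 h fast (edgeR adjusted p = 0.0662) and without replicate 1, 2 or 3 of the 16 h fast (0.0915, 0.0836 and 0.0737). Across the 12 alternatives the change lay between -0.45 and -0.35 and the adjusted p between 0.00393 and 0.0915.

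Pdha1, the gene of the alpha subunit that the kinases phosphorylate, lies on chromosome X at 160122209 to 160138413. It was at 73.3, 64.2 and 45.9 CPM after 4 h and at 72.9, 69.3 and 75.9 CPM after 16 h. Replicate 3 of the 4 h fast was the low liver, and the other 5 lay within 64.2 to 75.9 CPM. The change of 0.25 ± 0.15 did not pass (edgeR adjusted p = 0.276) and was 0.090 without that library (edgeR adjusted p = 0.522, within 0.0929 to 0.522 over all 12 alternatives). On the opposite strand, exons of Map3k15 cover 16.2% of the exon bases of Pdha1, and where counting ignored strand, reads there would go to neither gene.

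Per kb of exon, Pdhb was higher than Pdha1 in each liver. The ratio of Pdha1 to Pdhb was 0.442, 0.439 and 0.266 after 4 h and 0.621, 0.567 and 0.608 after 16 h. The groups did not overlap, and with or without the low replicate 3 the 4 h ratios were below the 16 h ratios. The remaining subunits of the complex were Dlat, the acetyltransferase core (-0.15 ± 0.12), Dld, the lipoamide dehydrogenase shared with sister complexes (0.12 ± 0.10), and Pdhx, which anchors that dehydrogenase (0.01 ± 0.11). None of these 3 passed (edgeR adjusted p = 0.443, 0.437 and 0.959). Of 5 listed subunits, then, none rose, 1 fell and 4 did not pass, with a median of 0.01.

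Mpc1 and Mpc2 together form the mitochondrial pyruvate carrier of the inner membrane, which needs both. Mpc1, on chromosome 17 at 8282904 to 8297661, was at 15.6, 14.6 and 11.0 CPM after 4 h and at 14.5, 13.3 and 17.5 CPM after 16 h. The groups overlapped and the change of 0.13 ± 0.16 did not pass (edgeR adjusted p = 0.591). Exons of the antisense gene 4930506C21Rik cover 23.1% of the exon bases of Mpc1. At 95% identity or more, the pseudogene Mpc1-ps matches 27.2% of the longest Mpc1 transcript, and Gm8219 matches 25.2% of it. The level of Mpc1 is therefore uncertain. Among the 10 members, no other had such a match of at least 150 bases to a gene elsewhere in the genome.

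Mpc2, on chromosome 1 at 165460637 to 165481214, was at 142, 128 and 177 CPM after 4 h and at 161, 177 and 172 CPM after 16 h. Replicate 3 of the 4 h fast was level with the 16 h livers and the other 2 were below them. The change of 0.19 ± 0.13 did not pass (edgeR adjusted p = 0.326). Without replicate 3 it was 0.34 and passed (edgeR adjusted p = 0.0184), and the adjusted p over all 12 alternatives ran from 0.0184 to 0.593.

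The members spanned a wide range of level per kb of exon. After 4 h the order was Pdhb (43.2 ± 3.6 CPM per kb), Pdk2 (35.8 ± 3.7), Mpc2 (20.3 ± 3.4), Pdha1 (16.4 ± 3.7), Pdk1 (9.06 ± 2.03), Pdp2 (8.89 ± 0.19), Mpc1 (6.61 ± 1.17), Pdk4 (1.87 ± 0.52), Pdp1 (0.252 ± 0.157) and Pdk3 (0.0511 ± 0.0281). The ranges of Mpc2 and Pdha1 and those of Pdk1 and Pdp2 overlapped, and the other neighbours in this order were apart. After 16 h the order kept Pdhb (32.5 ± 1.0) first and Pdk2 (30.8 ± 2.0) second, now with overlapping ranges. Pdk4 (6.10 ± 2.02) then overlapped Mpc1 (7.25 ± 1.04), which overlapped Pdk1 (7.34 ± 0.63). Pdk4 remained eighth of the 10 in both groups.

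Replicate 3 of the 4 h fast was the lowest 4 h liver for Pdk1, Pdha1, Mpc1 and Pdk3 and the highest for Pdhb, Mpc2, Pdp2 and Pdk4. It is the liver with lung and neutrophil transcripts, whose part in these values was not tested.

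The pathway was extended to 88 genes in 11 lists, of which 85 were tested. Of these, 25 rose, 9 fell and 51 did not pass. Of these 34 calls, 23 held in all 6 fits that left out 1 library, and the others were lost in at least 1 of them. Over all 13812 tested genes 18.7% were called, 9.18% as higher and 9.51% as lower. These are the shares to set beside the count of each list. The lists were chosen with earlier results of these livers known. Where a list gene lost or gained its call in such a fit, the highest adjusted p given for a loss, or the lowest for a gain, is also the extreme over all 12 alternatives of that gene.

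Genes that make or use pyruvate moved apart: of 9 tested of 10 listed, 3 rose, 2 fell and 4 did not pass. Pcx, pyruvate carboxylase, the other mitochondrial outlet for pyruvate, went from 487, 421 and 420 CPM to 752, 770 and 785 CPM (0.80 ± 0.11, edgeR adjusted p = 6.47e-04). Gpt2, the mitochondrial alanine aminotransferase, rose by 1.07 ± 0.14, and Ldha, the lactate dehydrogenase subunit and the most abundant of the list, by 0.63 ± 0.12. In these 3 genes the 16 h livers were all above the 4 h livers. Pklr, the liver pyruvate kinase that makes pyruvate in glycolysis, fell by 2.62 on the log2 scale (SE 0.22, with 22.0% of its exon bases under an antisense gene). Me1, the cytosolic malic enzyme that also makes pyruvate, fell by 0.91 (SE 0.20). That call was lost without replicate 3 of the 4 h fast (edgeR adjusted p = 0.0969) or of the 16 h fast (0.0521), and it fell by 0.58 without replicate 1 of the 4 h fast.

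Acetyl-CoA is the product of the complex. Of 7 genes that use it or carry it onward, 2 rose, 3 fell and 2 did not pass. Acat1, a thiolase, rose by 0.42 ± 0.11, and lost its call without replicate 2 of the 4 h fast or replicates 1 or 3 of the 16 h fast (edgeR adjusted p = 0.0551, 0.0811 and 0.0955). Acly, which cleaves citrate for fat synthesis, fell by 1.64 (SE 0.19), Acaca, which makes malonyl-CoA, by 0.95 (SE 0.15), and the citrate carrier Slc25a1 by 0.79 (SE 0.14). Citrate synthase, Cs, joins acetyl-CoA to oxaloacetate. Its change of -0.30 ± 0.10 did not pass (edgeR adjusted p = 0.0541), nor did that of Acacb (-0.37 ± 0.19, edgeR adjusted p = 0.22). Both passed without replicate 3 of the 4 h fast (edgeR adjusted p = 0.013 and 0.0182), which brought the fallers of this list to 5.

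The 2-oxoglutarate and branched-chain complexes are built like pyruvate dehydrogenase and share Dld with it. Of 8 genes listed for these and related complexes, 3 rose, none fell and 5 did not pass, with a median of 0.29. Ogdh and Dlst, which encode subunits of the 2-oxoglutarate complex, rose by 0.54 ± 0.10 and 0.64 ± 0.12. Both calls held without any one library. Ppm1k, the phosphatase of the branched-chain complex, rose by 0.54 ± 0.14, a call lost without replicate 1 of the 4 h fast or replicates 1 or 2 of the 16 h fast (edgeR adjusted p = 0.0508, 0.0743 and 0.068). Its kinase Bckdk, a relative of the Pdk genes, was 0.28 ± 0.14 higher without passing (edgeR adjusted p = 0.18), and passed without replicate 3 of the 4 h fast (0.0328). Bckdhb (0.25 ± 0.10), Dbt (0.12 ± 0.11), Dhtkd1 (0.29 ± 0.18) and Bckdha (0.15 ± 0.12, with 61.7% of its exon bases under B3gnt8) did not pass, though Dhtkd1 did without replicate 2 of the 4 h fast (edgeR adjusted p = 0.0454).

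The complex needs lipoate and thiamine pyrophosphate. Of 10 tested of 11 cofactor genes none rose, 2 fell and 8 did not pass. Ndufab1, the mitochondrial acyl carrier protein on which lipoate is built, fell by 0.37 (SE 0.12). Its call was lost in 5 of the 6 fits without 1 library and held without replicate 1 of the 4 h fast, and its edgeR adjusted p reached 0.134. The thiamine transporter Slc19a2, the most abundant of the list, was level (-0.02 ± 0.12). Of 12 genes that mark mitochondrial content, 11 did not pass. The outer membrane import receptor Tomm20 rose (0.58 ± 0.10), and the list median was 0.07.

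Regulators known to act on Pdk genes were called in both directions, with 4 of 11 higher, 1 lower and 6 not passing. Ppara, the fatty acid receptor PPARα, rose from 78.9, 66.2 and 55.3 CPM to 124, 119 and 111 CPM (0.82 ± 0.13, edgeR adjusted p = 0.00164). The related coactivators Ppargc1a and Ppargc1b went in opposite directions, by 1.02 ± 0.22 and -1.01 ± 0.20. The call of Ppargc1a was lost without replicate 3 of the 4 h fast (edgeR adjusted p = 0.0709). Foxo1 (0.50 ± 0.14) and the receptor Esrra (0.51 ± 0.13) also rose, and lost their calls without replicate 1 of the 4 h fast or replicates 2 or 3 of the 16 h fast (edgeR adjusted p = 0.0619, 0.119 and 0.0762, and 0.0666, 0.0868 and 0.109), which left 2 risers in each of these fits. Rxra, the most abundant of the list, did not pass (0.24 ± 0.10, edgeR adjusted p = 0.129).

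Of 15 target genes of PPARα, 10 rose, none fell and 5 did not pass, with a median of 0.92. Cyp4a14 led with 5.49 ± 0.31, and Cpt1a, the gatekeeper of mitochondrial fatty acid entry, rose by 1.05 ± 0.15. The change of Pdk4, 1.70, lay between that of Vnn1 (1.49 ± 0.29) and that of the thioesterase Acot1 (2.76 ± 0.18). The call of Vnn1, like that of Pdk4, was lost without replicate 3 of the 4 h fast (edgeR adjusted p = 0.117), and the other 9 called targets held without any one library.

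**Figure D4:**
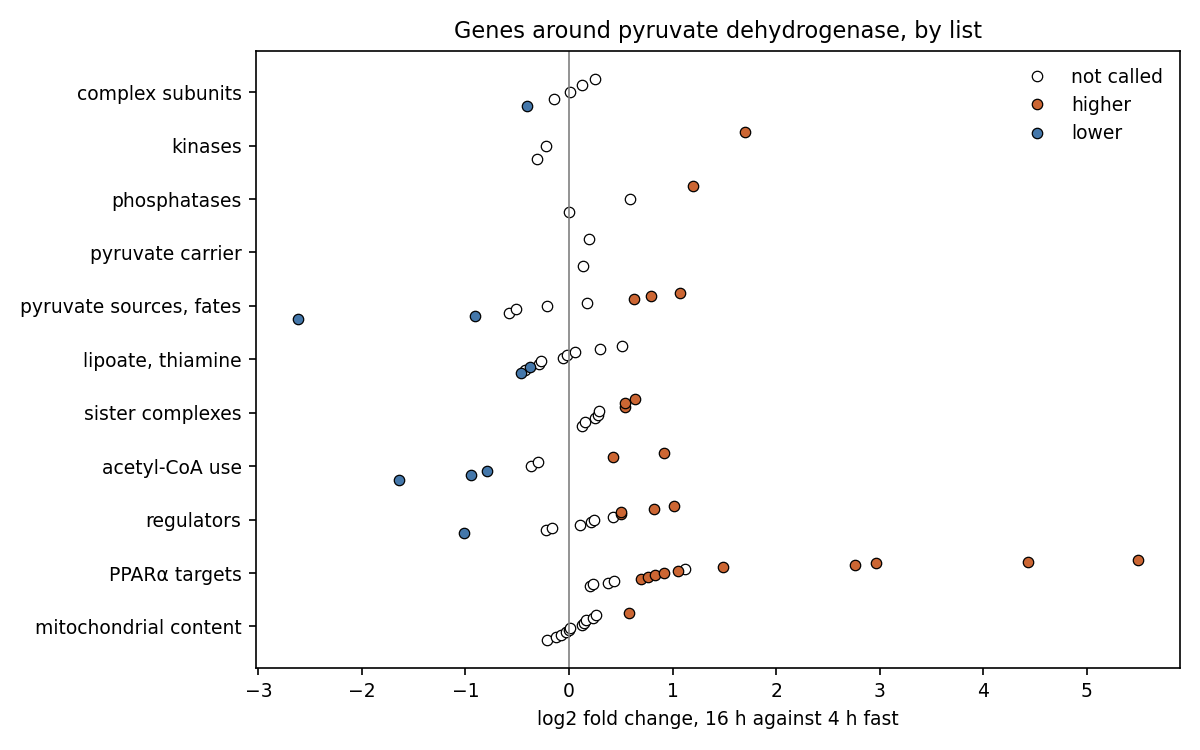
Log2 fold change of the 16 h fast against the 4 h fast (horizontal axis) for each tested gene of the 11 lists (rows), with filled points for genes that passed the edgeR test as higher or lower. The subunits and the mitochondrial content genes gather near 0, with list medians of 0.01 and 0.07, and the PPARα targets lie to the right, with a median of 0.92.

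Likeness to Pdk4 was measured over the 6 libraries as the root mean square difference of log2 CPM after each gene's own mean was subtracted, among 7626 other genes averaging 10 CPM or more. The nearest were Crat (0.30), Acot4 (0.33), Chrna2 (0.34), Bhmt (0.34) and Slc22a5 (0.36). Crat encodes carnitine acetyltransferase, which moves acetyl groups between CoA and carnitine, and rose from 38.4 to 136 CPM (1.82 ± 0.18). Slc22a5 encodes a carnitine transporter of the plasma membrane and rose from 30.8 to 76.3 CPM (1.30 ± 0.12). Acot4, an acyl-CoA thioesterase (1.20 ± 0.15), Bhmt, which remethylates homocysteine (1.48 ± 0.21), and Chrna2, a nicotinic receptor subunit (1.67 ± 0.15), rose as well. These genes were picked for their pattern in the same libraries, so their changes are a description.

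**Figure D5:**
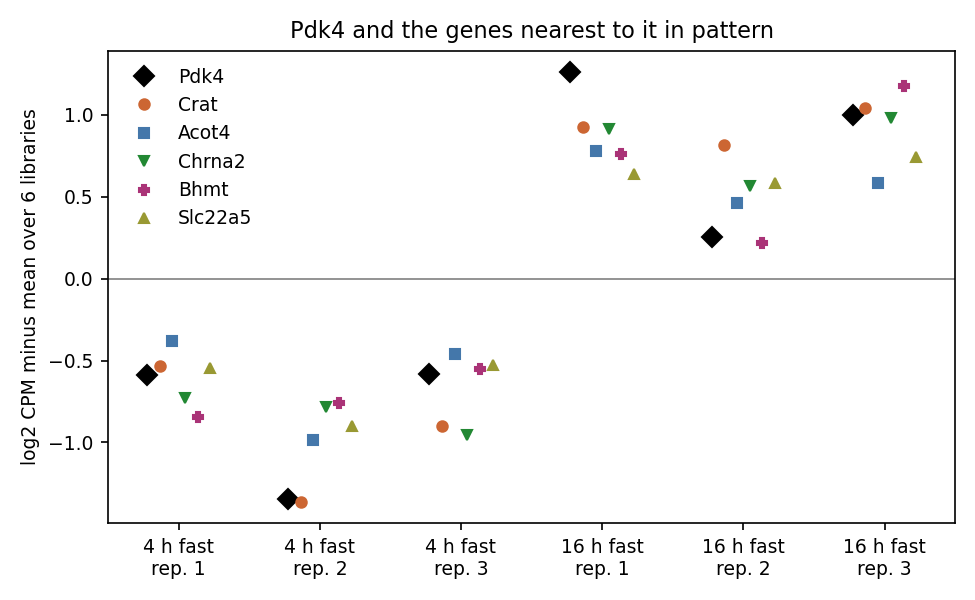
Log2 CPM of Pdk4 and the 5 genes nearest to it in pattern, each minus its own mean over the 6 libraries (vertical axis), by library (horizontal axis). All 6 genes are below 0 in the 4 h libraries and above 0 in the 16 h libraries.

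The same measure for Pdhb gave Mrpl39 (0.032), Chmp7 (0.034), Mettl17 (0.038), Trp53 (0.039) and Sec11a (0.042). Mrpl39 encodes a mitochondrial ribosomal protein, Chmp7 a protein of membrane scission, Trp53 the tumour suppressor p53 and Sec11a a signal peptidase subunit. Their changes lay between -0.43 for Mrpl39 and -0.35 for Mettl17, around the -0.41 of Pdhb, again as a description of genes picked for that pattern.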

How the data were processed

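Liver RNA of 6 mice was sequenced, 1 library each. The authors used Trimmomatic, STAR, HTSeq and DESeq2 with GRCm38 (mm10), per the submitters' processing notes, while tool versions, annotation release and strand setting were not given in the sources used here. What they deposited are raw counts per Ensembl gene. Summary lines that name no gene stayed out: reads outside genes were 6.44% to 7.14% of a library and reads hitting more than 1 gene 5.78% to 6.59%.

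Symbols, positions and exon lengths came from GENCODE M21 (GRCm38), which held 55144 of 55471 identifiers. Genes kept by filterByExpr (13812) were scaled with TMM and tested with edgeR 4.0.16 (R 4.3.3) by a robust quasi-likelihood test, 2-sided, fasting group as the only term, Benjamini-Hochberg over all tested genes, threshold 0.05. The fit was tested on simulated data. Depth was 15173653 to 26572532 counts. CPM used TMM-scaled sizes. Levels between genes are CPM per kb of the union of exons. The alternatives were edgeR with DESeq2 size factors, plain totals, DESeq2 1.42.0, no filter, a filter of at least 10 counts in every library of a group, a replicate block and leaving out each library. Counts of libraries of 1 group differed beyond sampling noise (chi-square per degree of freedom 17.3 to 68.5), so each was kept.

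Named genes are the 10 members, called list genes, unpassed members of lists of 8 or fewer, the most abundant member of longer lists, and the 5 genes nearest in pattern to each member that passed. Members and lists were chosen with earlier results of these data known. The labels give 3 animals per group, which the p-values take as the replicates. The individual values of some called list genes are not reported here.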

Additional observations from a re-analysis of the deposited data

How the results depend on the processing

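Pdk4 kept its direction in all 12 alternatives (1.49 to 1.94 without 1 library) and its call in all but 1 (1.81, edgeR adjusted p = 0.0532, without 4 h replicate 3). Pdhb kept its direction in all 12, at -0.37, -0.38, -0.41 and -0.43 where the call was lost (without 4 h replicate 1 and 16 h replicates 1, 2 and 3), within -0.45 to -0.35 over the fits without 1 library. Pdk1 ranged from -0.43 to -0.10 and Mpc2 from 0.12 to 0.34 over those fits. Pdp2, at 0, was 0.0094 with DESeq2 size factors, 0.017 with DESeq2 and 0.022 with no filter, and -0.044 to 0.041 without 1 library. With single libraries left out, 0 to 2 members fell (2, Pdhb and Pdk1, without 4 h replicate 3) and 1 rose (Mpc2 in that fit, Pdk4 in the others), and 671 to 1594 genes were higher and 696 to 1393 lower, against 1268 and 1313, with 818, 681 and 671 higher and 823, 715 and 696 lower without replicates 1, 2 and 3 of the 16 h fast. Over the lists 5 (without 16 h replicate 3) to 10 genes fell, against 9. Pdhx was -0.0083 with plain totals and -0.029 to 0.059 without 1 library, Dlat -0.24 to 0.0036, and Slc19a2 -0.12 to 0.086. The cause of these moves was not tested, beyond the smaller number of samples.

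Whether the replicate numbers of the titles pair livers cannot be told from these values. Same-numbered libraries had correlations of 0.045 to 0.093 between their deviations from the group means, none over 0.1, and 5 of 6 libraries were closest to their own number. With the replicate block 1352 genes were higher and 1396 lower, and no call of a member changed (Pdk4 1.70, edgeR adjusted p = 6.52e-05, Pdhb -0.41, edgeR adjusted p = 0.0249).

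Shares and ratios between genes depend on the length used. By the longest transcript, Pdk1 held 20.7% of the kinase sum after 4 h and 18.1% after 16 h, the kinase to phosphatase ratio was 7.20 and 6.54, and the ratio of Pdha1 to Pdhb was 0.309 and 0.483. With no length scaling, Pdk1 held 36.9% and 32.4%, Pdk2 59.6% and 55.4%, and the kinase to phosphatase ratio was 3.68 and 3.37 after 4 and 16 h. Depth limits Pdk3 and Pdp1, with at most 10 and 45 counts per library.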
